A study of Mus musculus with 27 samples.

Results

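The genes of the oxidative phosphorylation subunits were followed in NIH/3T3 cells, an established line of mouse embryonic fibroblasts, for 48 h after a pulse of forskolin, a plant compound that makes cells raise their cyclic AMP. Members were all probe sets with a single gene symbol in the platform annotation that begins with Nduf, Sdha to Sdhd, Uqcr, Cox4 to Cox8 or Atp5. These were 100 of 12488 probe sets and stood for 73 of 8252 genes, and 74 of them, for 65 genes, passed a filter on low intensity that kept 7453 probe sets. The symbols take in the assembly factors Ndufaf1, Ndufaf4, Sdhaf1 and Sdhaf2, and Cox7a2l, a factor of respiratory supercomplexes. Another 10 probe sets carry such a symbol together with a further one and were not counted.

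All 27 arrays came from cells whose serum had been lowered in steps and which then received 15 µM forskolin for 2 h in medium without serum, in which they stayed after rinsing. Flasks were harvested at the end of the pulse, called 0 h, and every 6 h up to 48 h, which gave 9 time points with 1 array from each of 3 experiments. The labels call the experiments biological replicates. Unless a block is named, as explained below, p-values measure the spread between experiments on this 1 cell line. Cells without the pulse were not analysed here, so a change from 0 h is a change since the end of the pulse.

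Oxidative phosphorylation is the process by which mitochondria make ATP from the energy of respiration. Complex I (NADH dehydrogenase) and complex II (succinate dehydrogenase) pass electrons to ubiquinone, complex III (the cytochrome bc1 complex) hands them to cytochrome c, and complex IV (cytochrome c oxidase) reduces oxygen. Complexes I, III and IV pump protons across the inner mitochondrial membrane, and complex V (ATP synthase) makes ATP as they flow back. Most subunits are encoded in the nucleus and a few core ones in mitochondrial DNA, and some subunits of complex IV have forms restricted to muscle or testis. Of 26 symbols listed for transcripts of mitochondrial DNA, 0 were found in the platform annotation, so all values here are for nuclear genes.

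The promoters of the member genes were compared with those of other genes for motifs that the gene symbols did not use. RefSeq windows of the GRCm38.p6 build, from 250 bases before to 50 bases after a transcript start, were found for 60 of the 73 genes, as 65 of 32851 windows. The letters GCGCATGCG, from the site of NRF1, an activator of nuclear genes of respiration, were present on either strand in 12.3% of the members' windows, against 2.35% of 21263 windows of protein-coding genes and 1.75% of all windows. The letters CCGGAAG, the core of the sites of ETS factors such as GABP, were present in 27.7%, against 11.6% and 8.86%. The YY1 letters AAGATGGCG were in 7.69%, against 1.83% and 1.4%, and the ERRA letters TCAAGGTCA in 1.54%, against 0.334% and 0.423%. The cyclic AMP response element TGACGTCA was in 3.08%, against 2.23% and 1.79%. The motifs do not contain one another, and the first and the last one can match on both strands at overlapping places. The members' windows had a median GC content of 59.0%, against 56.3% and 52.7%, and its part in these shares was not tested. A match of letters is a description and not a bound site.

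The 250 bases before the start of 5 genes are shown, with matches to these motifs in capitals. Atp5d, Ndufb8 and Ndufb2 are shown as genes called lower, Ndufaf1 as the one called higher and Atp5g2 as one that fell along the course, and Ndufb2 is with Ndufa10 1 of the 2 member genes with the cyclic AMP response element. In the GRCm38.p6 build these lie at chr10:80142025-80142274 on the plus strand for Atp5d, at chr19:44555443-44555692 on the minus strand for Ndufb8, at chr6:39592315-39592564 on the plus strand for Ndufb2, at chr2:119662835-119663084 on the minus strand for Ndufaf1, and at chr15:102671048-102671297 on the minus strand for Atp5g2, each directly upstream of an annotated transcript start, for Atp5d the first of its 2 starts. The element of Ndufb2 begins 14 bases before the start, the ETS match of Ndufaf1 18 bases and the NRF1 match of Atp5g2 42 bases, the last as 2 overlapping matches on opposite strands. None of the 5 motifs was found in the windows of Atp5d and Ndufb8, nor in those of Sdha and Ndufb11, called genes not shown.
Atp5d: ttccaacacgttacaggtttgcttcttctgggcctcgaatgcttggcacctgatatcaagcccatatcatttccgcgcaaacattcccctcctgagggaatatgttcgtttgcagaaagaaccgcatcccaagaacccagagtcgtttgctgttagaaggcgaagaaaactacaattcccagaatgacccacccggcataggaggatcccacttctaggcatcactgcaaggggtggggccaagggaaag
Ndufb8: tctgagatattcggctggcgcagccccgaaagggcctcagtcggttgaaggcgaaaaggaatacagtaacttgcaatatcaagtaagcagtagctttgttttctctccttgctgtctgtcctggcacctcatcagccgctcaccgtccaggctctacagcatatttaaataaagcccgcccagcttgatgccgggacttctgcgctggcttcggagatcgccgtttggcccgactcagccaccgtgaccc
Ndufb2: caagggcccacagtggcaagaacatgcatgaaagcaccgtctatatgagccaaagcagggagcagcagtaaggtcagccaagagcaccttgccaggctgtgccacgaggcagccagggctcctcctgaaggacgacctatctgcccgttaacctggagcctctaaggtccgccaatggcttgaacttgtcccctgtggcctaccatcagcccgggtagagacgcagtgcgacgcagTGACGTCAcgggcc
Ndufaf1: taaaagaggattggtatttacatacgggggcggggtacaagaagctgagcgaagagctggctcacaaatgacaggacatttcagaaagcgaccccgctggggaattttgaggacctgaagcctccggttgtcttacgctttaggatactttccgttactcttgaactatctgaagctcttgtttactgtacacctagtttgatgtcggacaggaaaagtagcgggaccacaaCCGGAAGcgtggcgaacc
Atp5g2: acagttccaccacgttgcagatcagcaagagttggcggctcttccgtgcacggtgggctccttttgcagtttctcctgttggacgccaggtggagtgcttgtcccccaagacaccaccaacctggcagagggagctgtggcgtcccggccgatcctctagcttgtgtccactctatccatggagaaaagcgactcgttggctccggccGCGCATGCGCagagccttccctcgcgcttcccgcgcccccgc

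Levels are normalized log2(intensity + 12.1), and changes are differences of log2 levels, given ± SE with n = 3 arrays at each time point. A member is called at an adjusted p below 0.05 over all 7453 probe sets in limma. Arrays of 1 experiment deviated together, and a second fit, with the experiment as a block, takes the differences between experiments out of the error. Its p-values measure the spread that is left after that. Against 0 h both are given for members where they differ in their call, and over the course and along the line for some members only. Where no block is named the value is from the fit without it. Per-experiment values are given in the order of experiments 1, 2 and 3. Arrays were scaled to a common level, so a level is relative to the other transcripts measured. RNA of whole cultures was used, so a change in all cells and one in a share of them cannot be told apart.

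The median deposited intensity of an array ran from 166.8 to 200.65, and the ratio of the 3′ to the 5′ actin control, a sign of RNA quality, from 1.35 to 1.7 at 0 h and from 1.11 to 1.73 over all arrays. Of 10 fibroblast markers 10 passed the filter, against 5 of 12 muscle, 1 of 6 epithelial, 2 of 5 blood, 1 of 5 endothelial and 3 of 6 neuronal markers. The summed intensity of the fibroblast markers lay between 104031.5 and 105172 at 0 h and between 107588.6 and 141985.2 later, and its part in the results was not tested. The arrays of experiment 1 labelled 18 h and 30 h went against the other experiments in Tef, a clock output gene. At 18 h its level was 9.48 in experiment 1, against 11.08 and 11.02 in the others, and at 30 h it was 11.45, against 9.82 and 10.40. Without these 2 arrays, a choice made after seeing the data, 3 members were called over the course in place of 2, and as many as with them at 24 h, at 48 h and along the line from 6 h to 48 h. Of all probe sets 6.9% were called without them over the course, 7.12% at 24 h and 7.77% at 48 h.

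The subunit transcripts moved little over the 48 h. The range between the highest and the lowest of the 9 time means had a median of 0.40 over the 74 probe sets, and 0 of them ranged over more than 1. Among all 7453 probe sets tested the median range was 0.55, and 993 of them, or 13.3%, ranged over more than 1. The members' probe sets had a median level of 10.72 and a median SD within a time point of 0.23, against 8.89 and 0.30 for all, and the part of signal and spread in the smaller range was not tested. The widest ranges were 0.98 for Sdha, the flavoprotein of complex II, and 0.96 and 0.94 for a pair of probe sets of Atp5d, the delta subunit of ATP synthase. The highest time mean lay at 0 h for 25 of the 74 and the lowest at 0 h for 10, against 1553 and 1783 of the 7453.

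The middle of the set lay slightly below its 0 h level. The median change of the 74 probe sets was −0.05 at 6 h, −0.12 at 24 h and −0.13 at 48 h, against −0.00, 0.01 and 0.00 for all probe sets tested. A negative change was found for 45 members at 6 h, 53 at 24 h and 52 at 48 h, against 3770, 3659 and 3711 of the 7453. In the 3 experiments the members' median was −0.05, −0.16 and −0.20 at 24 h and 0.02, −0.17 and −0.22 at 48 h. Experiment 1 stood apart at 48 h, where its median was not below 0. No test was made of a median.

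By complex, the medians at 24 h were −0.09 for the 31 probe sets of complex I, −0.01 for the 6 of complex II, −0.30 for the 7 of complex III, −0.21 for the 12 of complex IV and −0.13 for the 18 of complex V, the assembly factors being counted with their complex. At 48 h they were −0.11, −0.16, −0.21, −0.13 and −0.14. Complexes III and V had a median below 0 in each experiment at both times. In complex III it was −0.07, −0.33 and −0.24 at 24 h and −0.22, −0.40 and −0.20 at 48 h, and in complex V −0.11, −0.10 and −0.22 and −0.03, −0.21 and −0.26. Complex IV had −0.01, −0.21 and −0.32 and 0.09, −0.19 and −0.25, with experiment 1 the highest at both times. The differences between complexes were not tested.

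**Figure D1:**
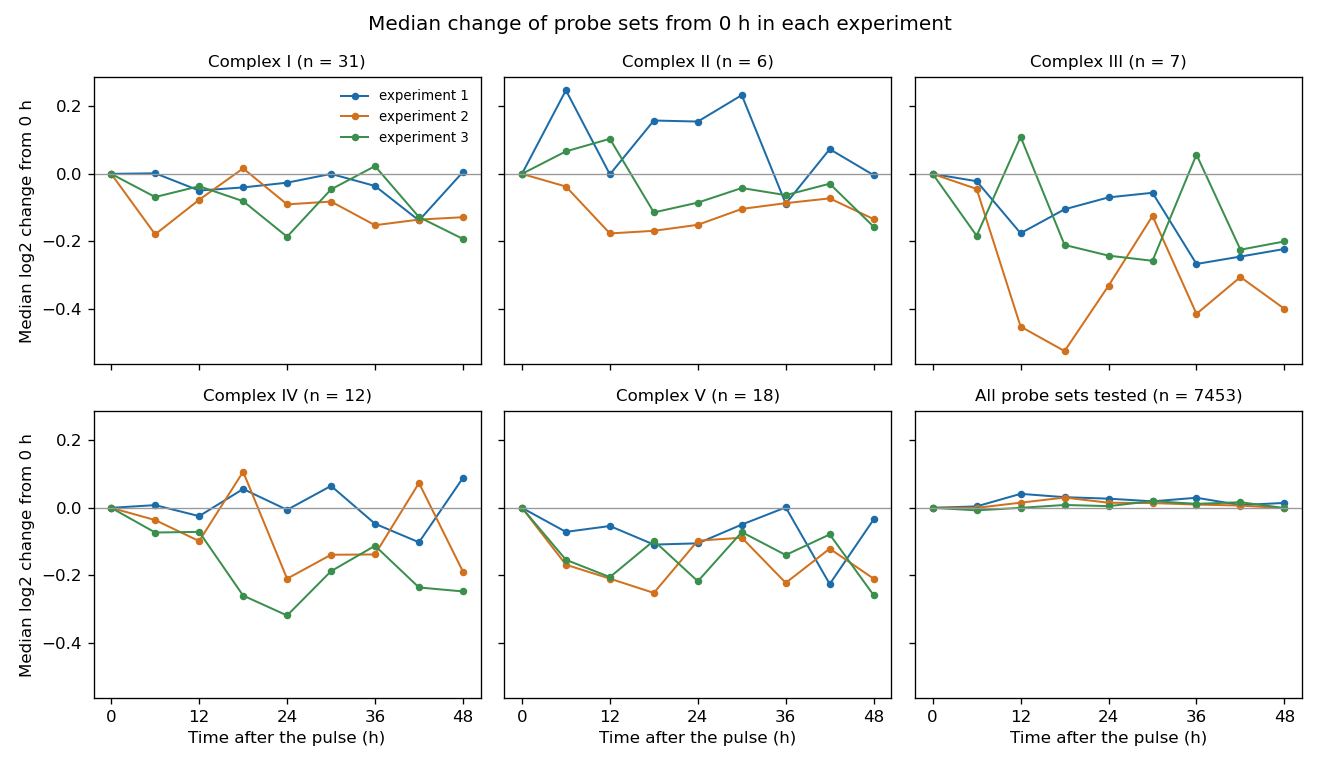
Median log2 change from 0 h (vertical axis) against time after the pulse in hours (horizontal axis) for the probe sets of complexes I to V and for all 7453 tested, with 1 line for each of the 3 experiments. Most medians of the complexes lie at or below 0 after 0 h and differ between experiments, the lowest being those of complex III in experiment 2, while those of all probe sets lie close to 0.

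Few members were called in any comparison of the fit without the block. With the block, which takes the pairing of arrays by experiment into account, more were called over the course and against 0 h, among all probe sets as well. Over the course 2 of 74 varied between time points, Ndufb11 and Sdha, with Atp5d next (adjusted p = 0.0624), against 7.3% of all probe sets, and with the block 15 did, against 26.4%. At 6 h limma called 0 of 74, against 6.09% of all, with 5 members and 1297 of the 7453 probe sets at an unadjusted p below 0.05, and with the block it called 8, against 16.7%, of which 5 were higher and 3 lower. At 24 h 5 were called, or 6.76%, against 6.92%, and with the block 17, or 23%, against 18.6%. At 48 h 6 were called, or 8.11%, against 7.9%, and with the block 13, or 17.6%, against 19.8%. At 24 h and 48 h the shares without the block were near those of all probe sets. With the block the members' share was above that of all at 24 h and below it at 48 h. Over the course and at 6 h it was below in both fits. Without experiment 2 there were 0 over the course, at 24 h and at 48 h, against 1.49%, 2.63% and 3.73% of all probe sets, and without experiment 3 there were 0 too, against 0.416%, 1.72% and 1.96%. Without experiment 1 there were 3 at 24 h and 5 at 48 h, against 5.51% and 7.47%. Calls thus became fewer among all probe sets as well.

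Most calls were falls. At 24 h 5 members fell and 0 rose, where 2.84% of all probe sets fell and 4.08% rose, and with the block 13 fell and 4 rose, against 7.96% and 10.6%. At 48 h 5 fell and 1 rose, against 3.23% and 4.67%, and with the block 11 fell and 2 rose, against 9.07% and 10.7%. At both times 3 of the 5 falls were probe sets of 1 gene, Atp5d. The genes called lower were thus Atp5d, Ndufb8 and Uqcrq at 24 h and Atp5d, Ndufb8 and Ndufb2 at 48 h, and both comparisons share the 0 h arrays.

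**Figure D2:**
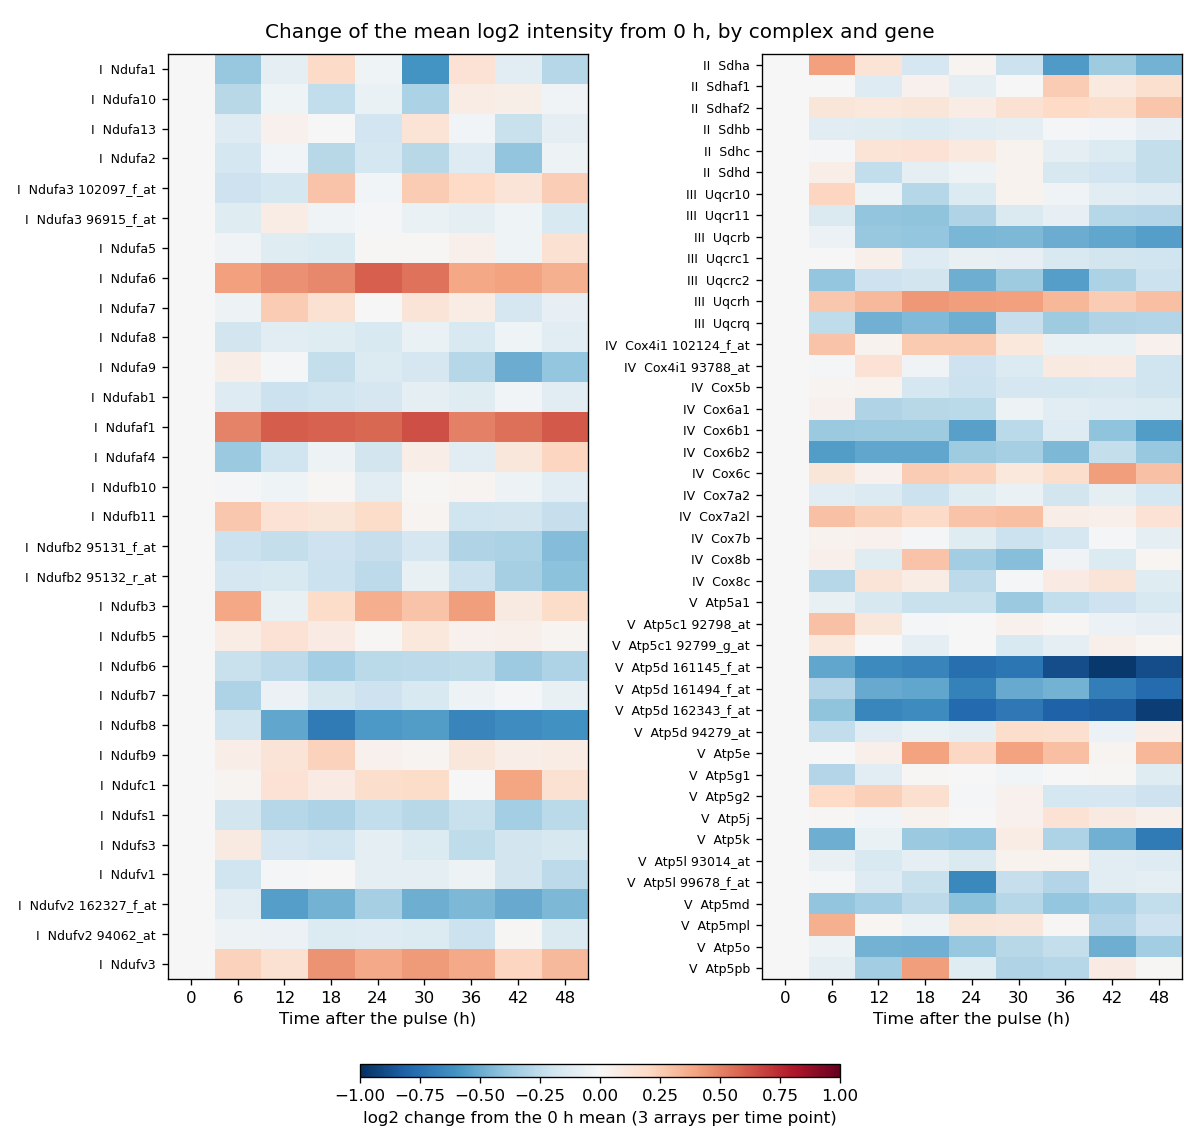
Change of the mean log2 level from the 0 h mean for each of the 74 probe sets (rows, by complex and gene) at the 9 time points in hours (columns), as colour from −1 (blue) to 1 (red), with 3 arrays per mean. Most rows are pale, 3 probe sets of Atp5d and the one of Ndufb8 are blue at the later times, and Ndufaf1 and Ndufa6 are red.

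In complex I, core subunits carry the flavin and the iron-sulphur clusters, and many accessory subunits surround them. Of its 31 probe sets, 1 fell at 24 h, and 2 fell and 1 rose at 48 h, with changes at 48 h from −0.60 to 0.61. The core subunits were not called without the block. Ndufs1, the large iron-sulphur subunit, changed by −0.25 ± 0.10 at 24 h and −0.27 ± 0.10 at 48 h (adjusted p = 0.189 and 0.135), and was called lower with the block (adjusted p = 0.0471 and 0.0292). Ndufv1, which binds NADH, changed by −0.26 ± 0.16 at 48 h (adjusted p = 0.425, and 0.0409 with the block). Ndufv2, another core subunit, has a pair of probe sets, which changed at 48 h by −0.15 ± 0.25 (0.01, −0.21 and −0.24 in the experiments) and by −0.45 ± 0.30 (−0.12, −0.38 and −0.85). Neither passed in either fit.

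Ndufb8, an accessory subunit of the membrane arm, was the complex I subunit called at both times. Its level was 11.37, 11.57 and 11.25 at 0 h, 11.02, 10.79 and 10.65 at 24 h and 10.98, 10.72 and 10.68 at 48 h. Each experiment was lower at both later times, and the groups did not overlap with 0 h. It fell by 0.58 ± 0.17 at 24 h and by 0.60 ± 0.17 at 48 h (adjusted p = 0.0394 and 0.027, and 0.000804 and 0.000463 with the block). The mean was lowest at 18 h, at 10.69, after 11.40 at 0 h. The call at 24 h was lost without the filter (adjusted p = 0.0554), with a variance model without intensity trend (adjusted p = 0.0539) and when any experiment was left out (adjusted p from 0.0591 to 0.412). That at 48 h was lost without experiment 2 (adjusted p = 0.391) and without experiment 3 (adjusted p = 0.102).

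Ndufb2, a small accessory subunit of the same arm, was called at 48 h. Of its 4 probe sets, 2 passed the filter. The probe set 95131_f_at had levels of 12.07, 11.95 and 11.87 at 0 h and 11.53, 11.55 and 11.52 at 48 h, with no overlap. It fell by 0.43 ± 0.13 (adjusted p = 0.0457, and 0.00063 with the block). The suffix f is the maker's mark for probes that can match several similar sequences, and r for probes picked under relaxed rules. Of the 74 member probe sets tested, 17 are of the f type. The probe set 95132_r_at changed by −0.41 ± 0.14 (adjusted p = 0.0771, and 0.00733 with the block), with −0.40, −0.57 and −0.26 in the experiments. The call of 95131_f_at was lost without the filter (adjusted p = 0.0663), without the intensity trend (adjusted p = 0.0723) and when any experiment was left out (adjusted p from 0.0502 to 0.287).

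Ndufb11, a further accessory subunit of the membrane arm, varied over the course (adjusted p = 0.0118, and 0.000144 with the block). Its level was 11.21, 11.17 and 11.12 at 0 h, 11.54, 11.43 and 11.33 at 6 h, 11.47, 11.29 and 11.29 at 24 h and 11.01, 10.94 and 10.85 at 48 h. All arrays of 48 h lay below all those of 0 h, 6 h and 24 h. Along a line from 6 h to 48 h it fell by 0.33 ± 0.05 per day (adjusted p = 0.000352), and this call held without each experiment in turn (adjusted p from 0.000797 to 0.0366). The call over the course was lost when any experiment was left out (adjusted p from 0.0615 to 0.533). Against 0 h it was at 0.27 ± 0.11 at 6 h (adjusted p = 0.166, and 0.0253 with the block) and at −0.23 ± 0.11 at 48 h (adjusted p = 0.241, and 0.0506 with the block).

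Ndufaf1, a factor that helps to assemble complex I and is no part of the finished enzyme, was the one member called higher without the block. Its level was 7.77, 7.77 and 7.92 at 0 h, 8.54, 8.43 and 7.98 at 6 h, 8.35, 8.60 and 8.24 at 24 h and 8.44, 8.52 and 8.34 at 48 h. All arrays of 24 h and 48 h lay above those of 0 h. It rose by 0.61 ± 0.19 at 48 h (adjusted p = 0.048), and the changes of 0.50 ± 0.19 at 6 h and 0.57 ± 0.19 at 24 h did not pass (adjusted p = 0.137 and 0.0694). With the block all 3 times were called (adjusted p = 0.045, 0.0182 and 0.0117). The call at 48 h was lost with the deposited scaling (adjusted p = 0.0512), without the filter (adjusted p = 0.0894) and when any experiment was left out (adjusted p from 0.147 to 0.346). Its other probe set did not pass the filter. Of the other assembly factors, Ndufaf4 changed by 0.22 ± 0.26 at 48 h, Sdhaf1 by 0.16 ± 0.22 and Sdhaf2 by 0.27 ± 0.16, and none of these passed in either fit.

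Further subunits of complex I were called with the block alone. Ndufa6, an accessory subunit, was higher by 0.41 ± 0.28 at 6 h and by 0.60 ± 0.28 at 24 h (adjusted p = 0.507 and 0.242, and 0.0498 and 0.00415 with the block), with 0.28, 0.71 and 0.80 in the experiments at 24 h. Ndufb6, of the membrane arm, was at −0.27 ± 0.18 at 24 h and −0.31 ± 0.18 at 48 h (adjusted p = 0.478 and 0.372, and 0.0408 and 0.0189 with the block). Ndufb7, of the same arm, was at −0.31 ± 0.11 at 6 h, with −0.28, −0.42 and −0.22 in the experiments (adjusted p = 0.118, and 0.0245 with the block). Ndufa9, which lies at the joint of both arms, changed along the line by −0.24 ± 0.10 per day (adjusted p = 0.182, and 0.0182 with the block).

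Other accessory subunits gave no call against 0 h in either fit. Ndufa7 was at −0.00 ± 0.14 at 24 h and −0.08 ± 0.14 at 48 h, with −0.06, 0.02 and −0.22 in the experiments. The probe sets of Ndufa3 read −0.15 ± 0.11 (0.09, −0.16 and −0.38) and 0.25 ± 0.31 (0.37, 0.22 and 0.16) at 48 h. They differed in sign, and neither passed. Ndufv3 was at 0.38 ± 0.21 and 0.32 ± 0.21, and Ndufb3 at 0.37 ± 0.28 and 0.19 ± 0.28, at 24 h and 48 h.

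Complex II belongs to both the respiratory chain and the citric acid cycle. Sdha and Sdhb oxidise succinate, and Sdhc and Sdhd anchor them in the membrane. Sdha varied over the course (adjusted p = 0.0338, and 0.0045 with the block). Its level was 7.80, 8.42 and 8.39 at 0 h, 8.55, 8.59 and 8.71 at 6 h, 8.32, 8.12 and 8.24 at 24 h and 7.35, 8.10 and 7.74 at 48 h. The arrays of 6 h lay above those of 24 h and 48 h, while 0 h overlapped with both, since experiment 1 was low at 0 h. From 6 h to 48 h Sdha fell by 0.51 ± 0.09 per day (adjusted p = 0.00176, and 0.000297 with the block), and its change at 48 h was −0.47 ± 0.21 (adjusted p = 0.193).

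The call of Sdha over the course was lost without the filter (adjusted p = 0.0716), without experiment 2 (adjusted p = 0.302) and without experiment 3 (adjusted p = 0.992), and that along the line without experiment 3 (adjusted p = 0.0943). Sdhc, a membrane anchor, changed by −0.24 ± 0.15 at 48 h, with −0.20, −0.15 and −0.37 in the experiments, and by −0.20 ± 0.07 per day (adjusted p = 0.116, and 0.0486 with the block). Sdhd was at −0.24 ± 0.13 and Sdhb at −0.08 ± 0.18 at 48 h, and neither passed in either fit.

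**Figure D3:**
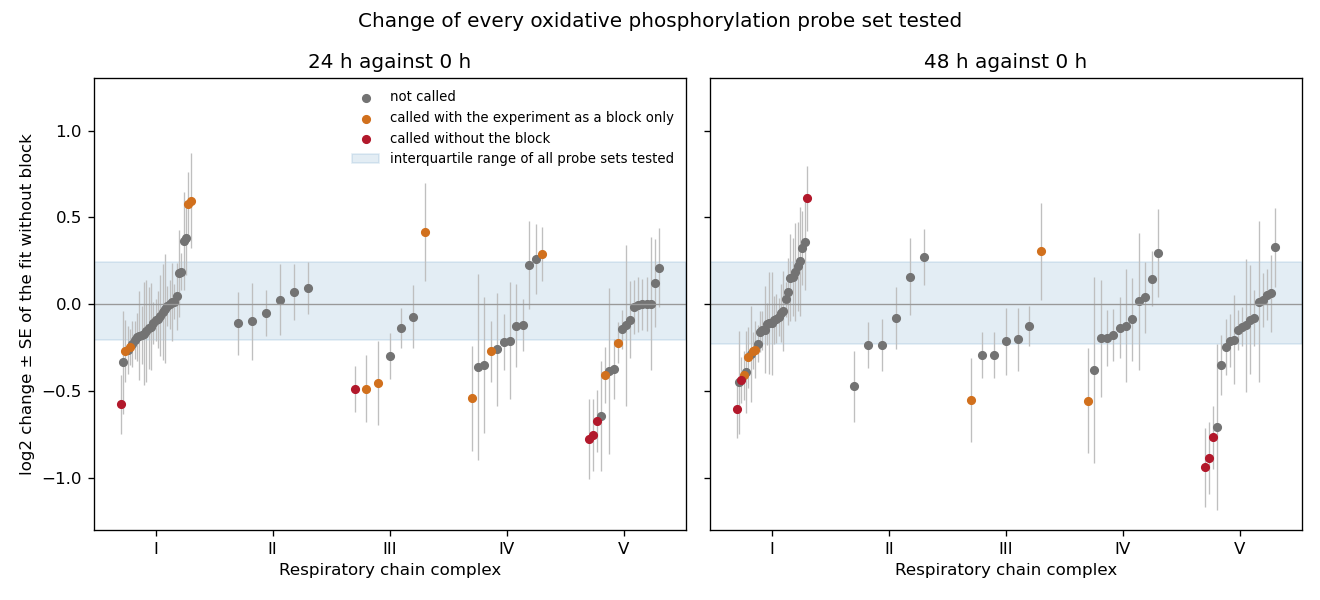
Log2 change ± SE (vertical axis) of each of the 74 members, at 24 h in the left panel and 48 h in the right one, relative to 0 h, sorted by size within each complex (horizontal axis), with colour for the fit that called it and a band for the interquartile range of all 7453 probe sets. The points called without the block are 5 falls at 24 h, and 5 falls and 1 rise at 48 h, and the 3 lowest of complex V are probe sets of Atp5d.

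In complex III the subunits differed in direction. Uqcrq, a small subunit that helps to bind ubiquinone, had levels of 12.18, 12.17 and 12.13 at 0 h, 11.86, 11.69 and 11.46 at 24 h and 11.82, 11.86 and 11.93 at 48 h. The 0 h arrays lay above all those of 24 h and 48 h. It fell by 0.49 ± 0.13 at 24 h (adjusted p = 0.0251), and the change at 48 h was −0.29 ± 0.13 (adjusted p = 0.222, and 0.0839 with the block). The call was lost without experiment 2 (adjusted p = 0.164) and without experiment 3 (adjusted p = 0.411).

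Uqcrb, another small subunit, was called lower with the block alone, at −0.45 ± 0.24 at 24 h and −0.55 ± 0.24 at 48 h (adjusted p = 0.337 and 0.201, and 0.019 and 0.00467 with the block). It was lower in each experiment, with −0.41, −0.67 and −0.57 at 48 h. Uqcrc2, a core protein, was at −0.49 ± 0.19 at 24 h (adjusted p = 0.15, and 0.0454 with the block), and Uqcrc1, the other core protein, at −0.07 ± 0.18 (adjusted p = 0.914). Uqcr11 was at −0.30 ± 0.13 at 24 h and −0.29 ± 0.13 at 48 h and did not pass in either fit.

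Uqcrh, the hinge protein through which complex III meets cytochrome c, moved the other way. Its level was 12.21, 12.00 and 11.97 at 0 h, 12.89, 12.26 and 12.27 at 24 h and 12.91, 12.03 and 12.15 at 48 h, with experiment 1 the highest each time. The change was 0.42 ± 0.28 at 24 h and 0.30 ± 0.28 at 48 h (adjusted p = 0.495 and 0.645), called higher with the block (adjusted p = 0.00324 and 0.0269). All experiments were higher at both times, by 0.68, 0.27 and 0.30 at 24 h and by 0.70, 0.04 and 0.18 at 48 h.

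In complex IV, none of the 12 probe sets was called without the block. Cox7a2l was called higher with it at 6 h and 24 h, by 0.29 ± 0.16 and 0.29 ± 0.16 (adjusted p = 0.353 and 0.348, and 0.0314 and 0.0308 with the block), with 0.31, 0.23 and 0.33 in the experiments at 24 h. Cox6b1, a subunit on the outer face of the oxidase, was called lower with it, at −0.54 ± 0.30 at 24 h and −0.56 ± 0.30 at 48 h (adjusted p = 0.363 and 0.33, and 0.0282 and 0.0233 with the block). Its changes were −0.31, −0.81 and −0.55 in the experiments at 48 h. Cox6a1, the form of its subunit found outside heart and skeletal muscle, was at −0.27 ± 0.18 at 24 h (adjusted p = 0.47, and 0.0453 with the block), with −0.05, −0.32 and −0.45.

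The other subunits of complex IV gave no call against 0 h in either fit. Cox6c was at 0.23 ± 0.25 at 24 h and 0.30 ± 0.25 at 48 h, with 0.15, 0.48 and 0.25 in the experiments. Cox7a2 was at −0.18 ± 0.15 at 48 h, with 0.16, −0.30 and −0.39, so that experiment 1 differed in sign. The probe sets of Cox4i1, which is needed for assembly of the oxidase, read 0.26 ± 0.20 (0.21, 0.65 and −0.08) and −0.21 ± 0.34 (−0.33, −0.56 and 0.26) at 24 h, again with different signs. Cox5b was at −0.20 ± 0.16 and Cox7b at −0.09 ± 0.24 at 48 h.

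The forms of complex IV subunits restricted to muscle or testis had 9 probe sets, of which 3 passed the filter. The probe sets of the muscle forms Cox6a2 and Cox7a1 had median deposited intensities of 68.5 and 20.4 and did not pass the filter. Cox8b, another muscle form, had 1 of 2 probe sets past it, with a median intensity of 191.1 and a change of 0.02 ± 0.39 at 48 h (−0.58, 0.85 and −0.23 in the experiments). The testis form Cox8c had 1 of 2, with a median of 859.5 and a change of −0.12 ± 0.33 (0.05, −0.12 and −0.31), and the testis form Cox6b2 had 1 of 3, with a median of 174.8 and a change of −0.38 ± 0.54 (0.40, −0.33 and −1.21). These changes scattered around 0 between experiments. Ubiquitous genes also failed the filter, with medians of 58.7 and 20.6 for the probe sets of Cox5a and 40.7 for Cox8a, and so did Ndufa12, Ndufc2, Ndufs4 and Atp5j2. A dim probe set therefore does not show that its gene is silent.

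In complex V, Atp5d gave the largest falls. It encodes the delta subunit of the F1 sector, a part of the central stalk that turns inside the catalytic head. The probe set 161145_f_at had levels of 10.47, 10.17 and 10.16 at 0 h, 9.81, 9.95 and 9.48 at 6 h, 9.66, 9.75 and 9.14 at 24 h and 9.56, 9.38 and 9.20 at 48 h. Every experiment was below its own 0 h level at each of these times, and no later group overlapped with 0 h. It fell by 0.75 ± 0.21 at 24 h and by 0.88 ± 0.21 at 48 h (adjusted p = 0.0274 and 0.00799), with −0.90, −0.79 and −0.96 in the experiments at 48 h. The change of −0.52 ± 0.21 at 6 h did not pass (adjusted p = 0.158, and 0.0275 with the block). On the deposited scale its intensity was 1372.8, 1132.5 and 1135.1 at 0 h and 750.9, 657.9 and 576.6 at 48 h.

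A further pair of its probe sets was called too. The probe set 161494_f_at had levels of 9.87, 9.35 and 9.18 at 0 h, 8.70, 8.84 and 8.84 at 24 h and 8.80, 8.64 and 8.67 at 48 h. It fell by 0.67 ± 0.18 and 0.77 ± 0.18 (adjusted p = 0.024 and 0.00853). For 162343_f_at the levels were 10.80, 10.51 and 10.26, 9.39, 9.91 and 9.95 and 9.05, 9.93 and 9.78, with falls by 0.77 ± 0.23 and 0.94 ± 0.23 (adjusted p = 0.042 and 0.011). Neither overlapped with 0 h at 24 h or 48 h. The size of the fall of 162343_f_at differed between experiments, with −1.75, −0.58 and −0.49 at 48 h.

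These calls of Atp5d were lost at 24 h when any experiment was left out (adjusted p from 0.0825 to 0.282), and at 48 h without experiment 2 (adjusted p from 0.08 to 0.135) or experiment 3 (adjusted p from 0.0784 to 0.0951). The call of 162343_f_at at 24 h was also lost with median centring (adjusted p = 0.102), without the filter (adjusted p = 0.0613) and without the intensity trend (adjusted p = 0.052). A further probe set of the gene was tested and was not called. This one, 94279_at, had levels of 7.37, 7.34 and 7.49 at 0 h and 7.41, 7.53 and 7.45 at 48 h, which overlapped, and changed by −0.09 ± 0.22 at 24 h and 0.06 ± 0.22 at 48 h (adjusted p = 0.909 and 0.933). The probe set 161047_at, with a median intensity of 26.6, did not pass the filter and was not tested. The 3 probe sets called are all of the f type, and 94279_at is not, and which of them follows the Atp5d transcript was not tested.

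**Figure D4:**
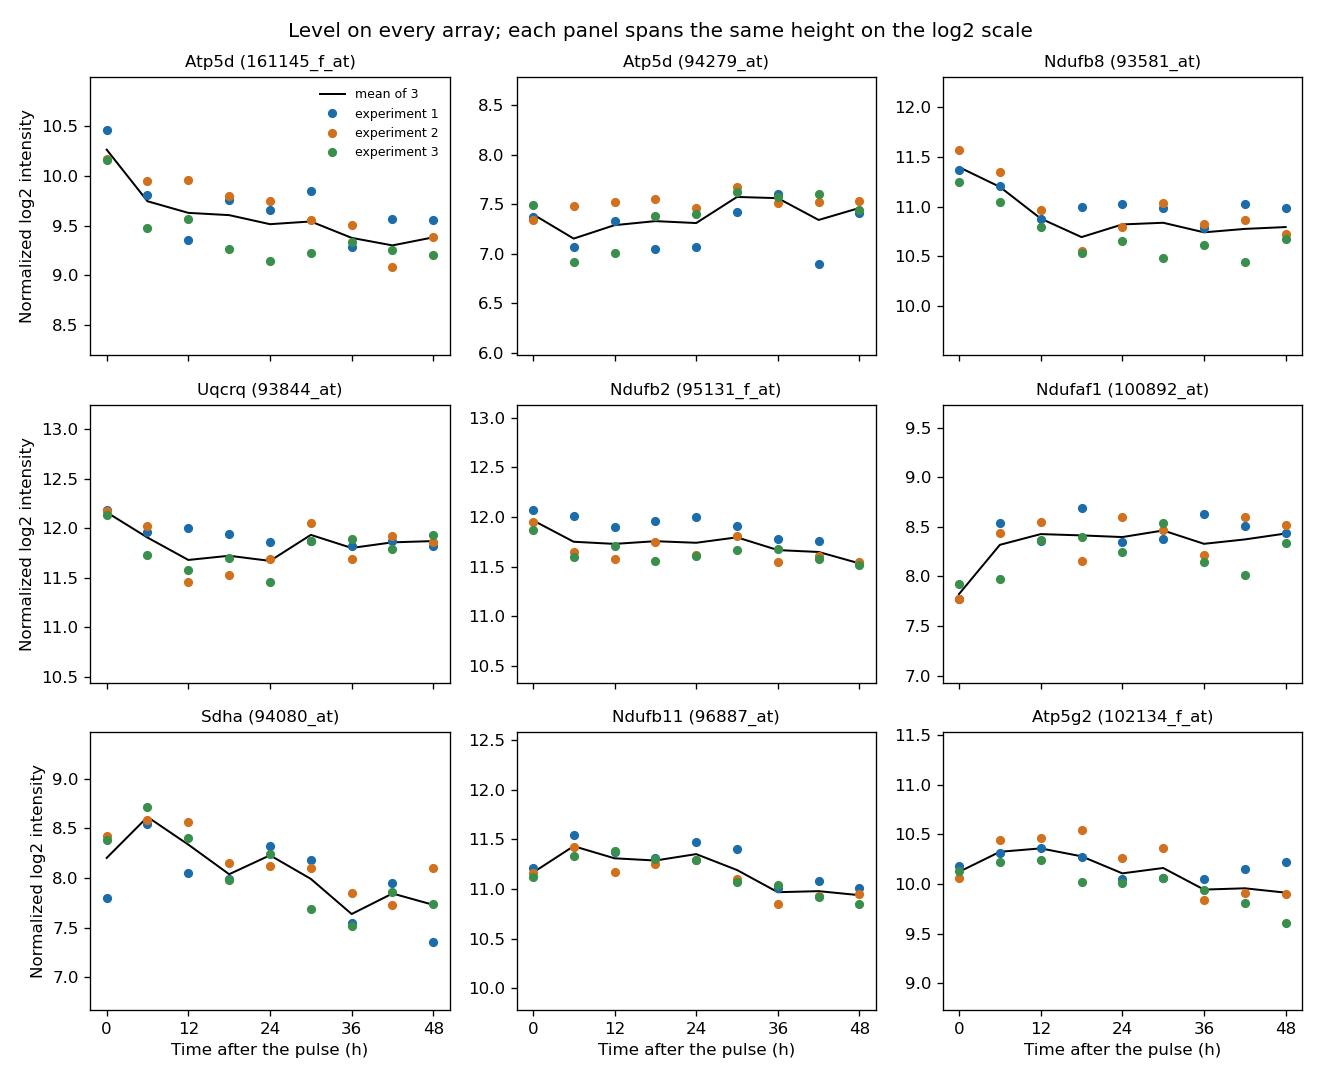
Normalized log2 level on each array (vertical axis) against time after the pulse in hours (horizontal axis). Each of the 3 experiments has 1 colour, and a line runs through the time means. Shown are 1 probe set for each gene called without the block and the uncalled probe set 94279_at of Atp5d. The called probe set drawn for Atp5d is 161145_f_at, and the other called ones of this gene are not drawn. The panels span equal heights, and Atp5d (161145_f_at) and Ndufb8 are highest at 0 h, Ndufaf1 is lowest at 0 h, and Sdha and Ndufb11 are highest at 6 h.

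Atp5g2, of the genes that encode the c subunit of the proton-driven ring, fell along the course in 1 probe set, 102134_f_at. This is of the f type, and whether it follows Atp5g2 alone was not tested. The gene's other probe set, 92570_at, had a median intensity of 43 and did not pass the filter. The level of 102134_f_at was 10.18, 10.06 and 10.13 at 0 h, 10.31, 10.45 and 10.22 at 6 h and 10.22, 9.90 and 9.61 at 48 h. From 6 h to 48 h it fell by 0.28 ± 0.07 per day (adjusted p = 0.0201, and 0.0018 with the block), a call lost without experiment 2 (adjusted p = 0.303) and without experiment 3 (adjusted p = 0.145). Against 0 h it was at −0.21 ± 0.15 at 48 h, with 0.04, −0.15 and −0.52 in the experiments. Atp5g1, which encodes the same mature protein, was at −0.12 ± 0.38, with 0.13, −0.21 and −0.29.

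Among the other subunits of complex V, the block brought a few calls. Atp5a1, the alpha subunit of the catalytic head, was at −0.22 ± 0.12 at 24 h (adjusted p = 0.332, and 0.0399 with the block). Atp5md, a small membrane subunit, was at −0.40 ± 0.16 at 6 h and −0.41 ± 0.16 at 24 h (adjusted p = 0.168 and 0.146, and 0.0388 and 0.0315 with the block), with −0.20, −0.53 and −0.48 in the experiments at 24 h. Of the probe sets of Atp5c1, the gamma subunit of the stalk, 92798_at was at 0.29 ± 0.16 at 6 h (adjusted p = 0.369, and 0.0314 with the block) and 92799_g_at at 0.11 ± 0.16 (adjusted p = 0.831). At 48 h this pair was at −0.08 ± 0.16 (0.06, −0.02 and −0.28 in the experiments) and 0.02 ± 0.16 (0.28, −0.19 and −0.02).

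The remaining subunits of complex V gave no call against 0 h in either fit. The probe sets of Atp5l, of the membrane sector, were at −0.14 ± 0.11 and −0.64 ± 0.31 at 24 h, the latter with −0.08, −0.50 and −1.34 in the experiments. Atp5k, of the same sector, had the largest change at 48 h among the uncalled of the 74 probe sets tested, −0.71 ± 0.48 (adjusted p = 0.473), with −0.32, −0.94 and −0.86. Atp5o, the subunit that ties the head to the outer stalk, was at −0.35 ± 0.17, and Atp5e, the epsilon subunit of the central stalk, at 0.33 ± 0.23.

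Along the line from 6 h to 48 h, which leaves out the 0 h arrays, 3 of 74 were called and all fell, namely Sdha, Ndufb11 and Atp5g2. Of all probe sets 6.13% were called, 3.3% as falls and 2.83% as rises. With the block 9 members fell and 0 rose, against 17.1% called, 9.02% falling and 8.05% rising. The members added by the block were Ndufa9, Sdhc, Uqcrb, 1 probe set of Cox4i1 and 2 of Atp5d. Without experiment 1 there were 5 calls, 4 falls and 1 rise, without experiment 2 there were 2 falls, and without experiment 3 there was 1, that of Ndufb11. The shares of all probe sets called in these fits are not given here, so these counts cannot be set against them.

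A 24 h rhythm, the question of the series, was fitted as cosine and sine terms beside the line. By limma 0 of 74 members had a called rhythm, and so did 0% of all probe sets, with the block as well (0%). At an unadjusted p below 0.05 there were 2 members and 248 of 7453 probe sets, and with the block 9 and 783. If no probe set had a rhythm, 3.7 members and 372.65 probe sets would be expected there. The counts without the block lay below these and those with it above. The median amplitude was 0.07 for the members and 0.09 for all. The smallest p belonged to Uqcr10, a small subunit of complex III, with an amplitude of 0.17 and a fitted peak at 6.98 h (unadjusted p = 0.00286, adjusted p = 1, and 0.257 with the block). Its levels were 11.32, 11.29 and 11.12 at 6 h, 10.62, 10.73 and 10.88 at 18 h, 11.02, 11.13 and 11.05 at 30 h and 10.99, 10.88 and 10.88 at 42 h. Next came Ndufa1, an accessory subunit of complex I, with 0.30 and a peak at 17.1 h (unadjusted p = 0.0264, adjusted p = 1), and Uqcr11, another small subunit of complex III, with 0.13 (adjusted p = 1). The doubtful arrays of experiment 1 enter these fits, and without them the count was 0 too.

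The genes with a motif in their promoter were set beside all 65 measured member genes, which include them. Each gene had 1 probe set, the brightest past the filter. The 8 genes with the NRF1 letters (Atp5g2, Atp5k, Atp5l, Cox6a1, Ndufa8, Ndufaf4, Uqcr11 and Uqcrc1) had a median change of −0.17 at 24 h and −0.17 at 48 h, with 0 called at 48 h. The 17 measured genes with the ETS letters had medians of −0.11 and −0.13, with 1 called at 48 h, Ndufaf1. The 3 measured genes with the YY1 letters (Atp5j, Ndufa9 and Ndufc1) had medians of 0.00 and 0.05, with 0 called at 48 h, and Sdhd, the one gene with the ERRA letters, was at −0.05 ± 0.13 and −0.24 ± 0.13. For all 65 genes the medians were −0.11 and −0.13, with 3 called. Of both genes with the cyclic AMP response element, Ndufb2 is described above and Ndufa10 was at −0.04 ± 0.23 at 48 h (adjusted p = 0.968).

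Few genes around the respiratory chain were called without the block, and the medians of their lists differed in direction. Of 17 measured genes of electron carriers and nucleotide exchange, 0 were called without the block. Their median change was −0.22 at 24 h and −0.14 at 48 h. With the block 1 rose and 3 fell at 6 h, 0 rose and 1 fell at 24 h, and 0 rose and 2 fell at 48 h. At these times 16.7%, 18.6% and 19.8% of all probe sets were called with the block. Cycs, cytochrome c, was at −1.05 ± 0.32 at 6 h (adjusted p = 0.0506). Of 15 other assembly factors, 1 rose and 1 fell at each of 6 h, 24 h and 48 h, where 6.09%, 6.92% and 7.9% of all probe sets were called. The median change of these factors was 0.03 at 24 h and 0.03 at 48 h. With the block 2 rose and 3 fell at 6 h, 1 rose and 1 fell at 24 h, and 1 rose and 2 fell at 48 h. The shares of all probe sets with the block are those given above. Surf1, a factor of complex IV, rose by 0.60 ± 0.13 at 24 h (adjusted p = 0.00504). Fdx1, a ferredoxin that gives electrons to mitochondrial enzymes of steroid synthesis, fell by 1.24 ± 0.13 at 48 h (adjusted p = 1.09e-06).

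Of 19 genes of pyruvate dehydrogenase and the citric acid cycle, 0 were called at 6 h, 1 rose and 1 fell at 24 h, and 2 fell at 48 h, against the same shares of all probe sets. With the block 2 rose and 1 fell at 6 h, 1 rose and 4 fell at 24 h, and 2 rose and 5 fell at 48 h. At these times 16.7%, 18.6% and 19.8% of all probe sets were called with the block. Over the course 10 of the 19 varied with the block, where 26.4% of all probe sets did. Idh2 rose by 0.68 ± 0.14 at 24 h (adjusted p = 0.00309), and Mdh2 fell by 0.47 ± 0.13 (adjusted p = 0.0282). Both are mitochondrial dehydrogenases. Pdk3, a kinase that inhibits pyruvate dehydrogenase, fell by 0.56 ± 0.14 at 48 h (adjusted p = 0.0105). The list's median was −0.16 at 24 h and −0.24 at 48 h.

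Of 13 regulators of mitochondrial biogenesis, 2 rose at 6 h, 1 at 24 h and 1 at 48 h, and 0 fell, where 6.09%, 6.92% and 7.9% of all probe sets were called in either direction. The median change of the regulators was 0.15 at 24 h and −0.06 at 48 h. With the block 3 rose at 6 h, 1 at 24 h and 3 at 48 h, and 0 fell, where 16.7%, 18.6% and 19.8% of all probe sets were called. Yy1, a zinc finger factor, rose by 0.71 ± 0.18 at 6 h and 1.39 ± 0.18 at 48 h (adjusted p = 0.0198 and 2.28e-05), and Ssbp1, which binds mitochondrial DNA, by 0.69 ± 0.16 at 6 h (adjusted p = 0.0101). Of 36 genes of the mitochondrial ribosome and import, 0 were called against 0 h. With the block 2 were lower at 6 h, 3 at 24 h and 3 at 48 h, against the same shares of all probe sets with the block. The medians of the 36 genes were −0.10 at 24 h and −0.16 at 48 h. Mrpl23, a protein of the ribosome's large subunit, fell by 0.47 ± 0.09 per day from 6 h to 48 h (adjusted p = 0.00192), the one call of the list along the line. With the block 7 genes of the list rose and 2 fell along it, against 8.05% and 9.02% of all probe sets.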

How the data were processed

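Total RNA of 27 NIH/3T3 cultures was measured on Affymetrix mouse U74v2 arrays, 3 at each of 9 time points. The deposited values are linear intensities of probe sets. The method that summarized the probes was not given in the sources used here. The 2% trimmed mean was 500.277 to 500.347 on every array, so the authors deposited intensities scaled to a common target.

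Log2(intensity + 12.1), with the 10th percentile of all intensities as pseudocount, was quantile normalized. Folds of dim probe sets are understated on this scale. Controls and probe sets under the 40th percentile of mean level were left out. Linear models were fitted with limma 3.58.1 (R 4.3.3), using a variance trend on intensity and the Benjamini-Hochberg adjustment, and the code was tested on simulated data. One fit of the 9 time means gave the contrasts and the F test. The line and the rhythm were fitted to the arrays from 6 h to 48 h.

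Deviations from the time means correlated between arrays of an experiment (r from 0.426 to 0.642, 0.349 to 0.599 and 0.135 to 0.482 in experiments 1 to 3), so the experiment numbers pair the samples. Members and lists were chosen with earlier results of these data known. Any member could be named. By the rule, values by experiment were to be given for called members, for the smallest p of a test with under 3 calls, for the brightest probe set of each complex, and for isoforms and genes with several probe sets. Some of the uncalled ones are given by time means or changes alone. List genes were named by call and size, or else by the smallest p. Other settings changed scaling, pseudocount, filter, variance model, array weights, block, period, terms and replicates. The number of arrays limits the precision, and detection calls were not used here.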

Additional observations from a re-analysis of the deposited data

How the results depend on the processing

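The median changes of the set kept their direction at 6 h, 24 h and 48 h in every setting run, from −0.22 to −0.03 over the 3 times when an experiment was left out. The counts of called members moved more. With the experiment as a replicate block 15 were called over the course in place of 2, 8 at 6 h in place of 0, 17 at 24 h in place of 5, 13 at 48 h in place of 6, and 9 along the line in place of 3. With array weights there were 5 over the course, 1 at 6 h and 8 at 24 h, where 15.2%, 10.8% and 10.9% of all probe sets were called. Median centring gave 4 over the course, against 6.2%. Without the filter there was 1 over the course and 3 at 24 h, against 3.59% and 3.49%, and without the intensity trend 3 at 24 h, against 6.45%. Leaving out 1 experiment gave 0 to 2 over the course, 0 at 6 h, 0 to 3 at 24 h, 0 to 5 at 48 h and 1 to 5 along the line. Of all probe sets 0.416% to 6.76% were then called over the course and 1.49% to 4.52% at 6 h. At 24 h it was 1.72% to 5.51% and at 48 h 1.96% to 7.47%, and the shares along the line are not given here. The cause of these shifts was not tested. The count of rhythms was 0 in every setting run. The call at 6 h with array weights was a fall, and those with the block were 5 rises and 3 falls. The 1 rise at 48 h was not called without the filter, with the deposited scaling or when any experiment was left out.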
